A study of Rattus norvegicus with 9 samples.

Results

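The genes of protein export into the endoplasmic reticulum (ER) and of the early secretory pathway were followed in rat NRK-49F cells, a widely used line of interstitial fibroblasts from kidney. Members were chosen by symbol, as the signal recognition particle and its receptor, the Sec61 channel, the translocon-associated proteins, signal peptidase, the coat complex II (COPII) and coat complex I (COPI) genes, Sec22, Tmed and the KDEL receptors, and had to show a count above 0 in at least 1 library. This gave 53 of the 22050 genes in the table, of which 15031 had a count above 0. The count condition was the one measured value in the choice. Sec31b lay just inside it, with 26 counts over the 9 libraries and at most 5 in a library, and Tmed6 and Tmed11 lay just outside it, with 0 counts in each library. A count of 0 allows up to 3 counts, or 0.137 to 0.219 on the CPM scale (counts scaled to a common library size) in these libraries. The filter on low counts kept 52 of the 53 members, all but Sec31b. No gene carried the symbols Srp72, Srprb, Sar1a, Copb2 or Copg1, which the choice would also take. Arcn1, another COPI coat subunit, fell outside the choice by symbol and is counted below with the genes that assemble COPI. Counts of members per role therefore do not always cover the whole complex. By stage, 21 members serve ER entry, 14 the COPII coat and its Sec22 cargo, 9 are Tmed genes, most of them of the p24 family, and 9 are KDEL receptors or COPI subunits.

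All 9 libraries came from wild-type cells that had received TGF-β1, which pushes fibroblasts towards matrix production, and the protocol states 48 h of incubation. Besides TGF-β1, 3 libraries had vehicle, 3 had YEXX-2A and 3 had YWCH-4A. Doses and times of the compounds are not in the labels, the compounds are known here by code name, and no group without the cytokine was analysed here. The design text calls the replicates biological, but nothing states that they were separate cultures, so the p-values may reflect technical spread among libraries alone.

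A secreted protein enters the ER when the signal recognition particle binds its signal peptide and brings the ribosome to the Sec61 channel, where signal peptidase removes the peptide. COPII vesicles then carry the folded protein towards the Golgi, and COPI vesicles return escaped ER proteins, which KDEL receptors recognise. Fibroblasts that make collagen place a heavy load on this route, because procollagen is large and is secreted in bulk.

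The members were well expressed in these cells. On the FPKM scale, which corrects for gene length, the median of the 52 tested members was 41.7, beside 11.4 for all 11473 tested genes. Sec61a1, the pore-forming channel subunit, had the highest mean level at 282.8 FPKM, followed by the p24 protein Tmed9 at 231.7 and the translocon-associated subunit Ssr2 at 224.7. The lowest tested members were Tmed8 at 1.52 FPKM, Sec22c at 2.29 and Tmed5 at 2.94. Members together took 0.678% to 0.696% of the counts of a library with vehicle, 0.702% to 0.707% with YEXX-2A and 0.726% to 0.736% with YWCH-4A. On the CPM scale the order was reversed, with member sums averaging 7320, 7057 and 6863. The TMM factors behind that scale ran from 0.898 to 0.972, 0.989 to 1.004 and 1.056 to 1.068. The direction of the summed level therefore depended on the scaling.

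Total counts ran from 13675880 to 21923706 per library. Vehicle replicate 2 stood apart: the biological coefficient of variation was 16.7% among the vehicle libraries and 4.68% without it, beside 7.39% for YEXX-2A and 3.66% for YWCH-4A. The share of counts from 13 mitochondrial genes was 1.43% in vehicle replicate 2, 1.90% and 2.04% in the other vehicle libraries, 2.30% to 2.66% with YEXX-2A and 1.88% to 2.00% with YWCH-4A, and its part in the results was not tested. Of the fibroblast markers, 11 of 12 were matched. They summed to 68180 to 87370 CPM with vehicle, 56950 to 61750 with YEXX-2A and 36870 to 40190 with YWCH-4A. With vehicle, much of that sum was Col1a1, whose means are given below with the cargo of the route. Of 9 tested fibroblast markers, 0 rose and 4 fell with YEXX-2A, and 1 rose and 4 fell with YWCH-4A. Of all tested genes, 36.1% and 30.6% were called. Kidney epithelial markers (13 of 13 matched) summed to 1785 to 2298, 1516 to 1602 and 916 to 964 CPM, most of it Krt8, with Epcam, Krt18, Umod, Slc12a1 and Aqp2 at 0 counts. Endothelial markers (7 of 8 matched, Cldn5 at 0) summed to 1.70 to 4.46 CPM. Leukocyte markers (9 of 9, Cd3e at 0) summed to 47.4 to 62.9 CPM with vehicle, 41.7 to 45.4 with YEXX-2A and 66.3 to 73.8 with YWCH-4A, ranges that did not overlap. Most of it was Cd68, which was lower with YEXX-2A (-0.33, adjusted p = 0.0342) and higher with YWCH-4A (0.37, adjusted p = 0.019), and the part of these markers in the results was not tested. In bulk RNA, fewer cells of a type and less RNA per cell cannot be told apart.

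Before the expression values, 4 stretches upstream of member genes are shown, each the 250 bases that end just before the annotated start, from RefSeq on build GRCr8. Kdelr3, a receptor that retrieves escaped ER proteins and was lower with both compounds (chr7:112959382-112959631, plus strand), and Sec23a, a COPII coat gene called in neither comparison with vehicle over all libraries (chr6:82440905-82441154, minus strand), both hold the core of the unfolded protein response element, TGACGTGG on either strand, which is in capitals. Spcs2, a signal peptidase subunit that was higher with both compounds (chr1:163595270-163595519, minus strand), and Copz2, the member that fell furthest with YWCH-4A (chr10:82328638-82328887, plus strand), hold none and are shown for comparison.
Kdelr3: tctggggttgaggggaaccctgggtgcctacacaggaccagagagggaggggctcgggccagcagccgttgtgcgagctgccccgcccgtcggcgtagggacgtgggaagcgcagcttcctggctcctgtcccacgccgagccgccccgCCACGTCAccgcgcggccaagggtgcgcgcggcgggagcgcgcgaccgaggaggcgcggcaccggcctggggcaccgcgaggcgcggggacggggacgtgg
Sec23a: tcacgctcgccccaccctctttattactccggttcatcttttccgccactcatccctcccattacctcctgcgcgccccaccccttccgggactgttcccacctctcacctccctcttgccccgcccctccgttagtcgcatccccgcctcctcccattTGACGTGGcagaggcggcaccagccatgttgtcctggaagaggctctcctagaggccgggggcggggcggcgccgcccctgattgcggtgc
Spcs2: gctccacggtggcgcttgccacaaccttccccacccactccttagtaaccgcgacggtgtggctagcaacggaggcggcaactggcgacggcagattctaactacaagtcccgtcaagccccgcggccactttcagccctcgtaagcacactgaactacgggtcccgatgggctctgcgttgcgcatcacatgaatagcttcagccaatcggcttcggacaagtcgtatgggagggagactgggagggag
Copz2: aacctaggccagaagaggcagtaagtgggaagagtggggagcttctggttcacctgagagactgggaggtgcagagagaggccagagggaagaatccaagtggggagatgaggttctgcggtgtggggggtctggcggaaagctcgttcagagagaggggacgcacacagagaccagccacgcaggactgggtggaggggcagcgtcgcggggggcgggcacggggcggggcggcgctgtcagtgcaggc
Motifs were counted on both strands from 250 bases before to 50 bases after the start, and 48 of the 53 members had such a window. The core TGACGTGG lay in 5 of the 48 (10.4%), namely Copa, Copb1, Kdelr3, Sec23a and Srp19, and in 0.595% of all 33469 windows. It began 101 bases before the start in Kdelr3 and 91 before it in Sec23a. The shorter CCACG, which the reverse strand of the core contains, lay in 28 members (58.3%) and in 31.6% of all windows. The cyclic AMP element TGACGTCA lay in the window of Cope (2.1% of members, 1.83% of all). The ER stress elements ERSE and ERSE-II and the C/EBP-ATF composite TGATGCAA lay in 0 of 48 members, and in 0.0657%, 0.0508% and 0.795% of all windows. Of the 5 genes with the core, Srp19 was higher and Copa and Kdelr3 were lower with YEXX-2A, and Copa and Kdelr3 were lower with YWCH-4A. A match of letters is a description and not evidence of binding.

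With YEXX-2A, 15 members rose and 13 fell of the 52 tested (53.8% in all), where 36.1% of all tested genes were called (17.6% higher and 18.5% lower; edgeR quasi-likelihood test, adjusted p under 0.05). The changes split by stage: 11 of the 21 ER entry genes rose and 2 fell, while 6 of the 9 COPI and KDEL receptor genes fell and 1 rose. The COPII coat with Sec22 had 0 rises and 4 falls of 13, and the Tmed genes 3 rises and 1 fall of 9. The median log2 fold change was 0.35 for ER entry and -0.23 for COPI with KDEL receptors, beside 0.01 for all tested genes and 0.03 for all members. Fitting only the vehicle and YEXX-2A libraries kept 10 of the 28 calls, 6 higher and 4 lower, where 1408 of 11255 tested genes were called. Of the members named below, Cope, Sec24d, Sec31a, Srp14, Ssr2, Ssr3, Sec11c, Spcs1, Spcs2 and Spcs3 stayed called in that fit, and the other 16 named YEXX-2A calls did not. Folds were modest, from -0.57 for Cope to 0.83 for Spcs3 and Tmed5 among the calls.

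With YWCH-4A, 6 members rose and 9 fell of 52 (28.8%), where 30.6% of all genes were called (15.7% higher and 14.9% lower), so the share of members called was close to that of all genes. Fitting only the vehicle and YWCH-4A libraries kept 10 of the 15 calls, and Sar1b, Sec22a, Srp14, Ssr4 and Sec11c were lost. That fit called 2749 of 11328 tested genes, with 2 members higher and 8 lower. Of the ER entry genes, 4 of 21 rose and 2 fell (median 0.13), and 3 of the 9 COPI and KDEL receptor genes fell with 0 rises (median -0.16), beside a median of 0.03 for all genes. The COPII stage had 2 rises and 2 falls of 13, and the Tmed genes 2 falls of 9. Both compounds were compared with the same 3 vehicle libraries. Against them Srp14, Sec11c, Spcs1 and Spcs2 were called higher with each compound, and Copa, Copz2, Kdelr3, Sec24d, Sec31a, Ssr2 and Tmed9 were called lower with each, while 20 members were called with neither. Shared vehicle libraries favour calls in the same direction with both compounds. The same count over all tested genes was not made, so the overlap does not set the members apart.

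**Figure D1:**
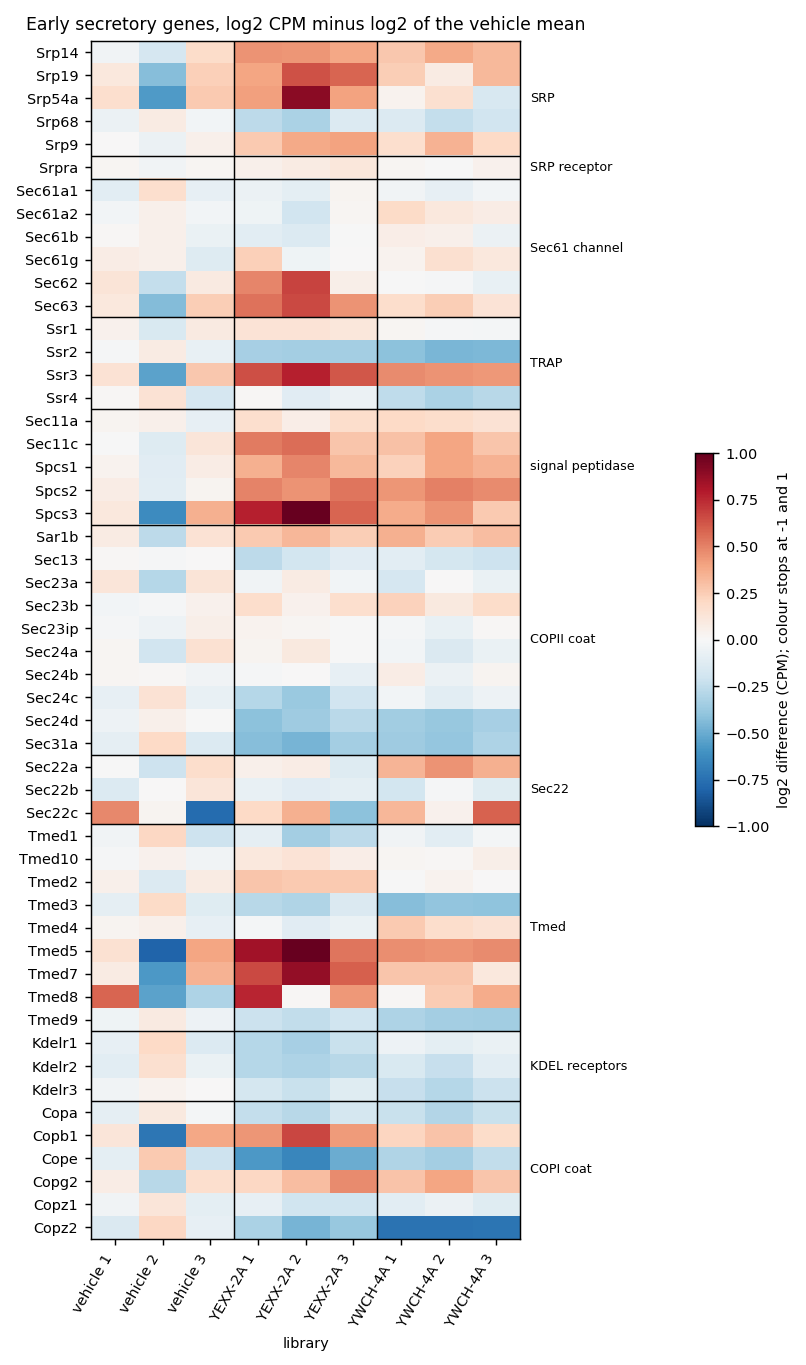
Colours give log2 CPM of each library (columns) minus log2 of the vehicle mean for the 52 tested members (rows, grouped by role), with red higher and blue lower. Signal peptidase rows are red with both compounds, COPI and KDEL receptor rows are mostly blue with YEXX-2A, and vehicle replicate 2 differs from the other vehicle libraries in many rows.

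Vehicle replicate 2 lay at the far end of most of these calls. It was the lowest of the 9 libraries for all 15 members that rose with YEXX-2A and the highest for 12 of the 13 that fell, all but Sec13, and it was likewise lowest for the 6 rises and highest for the 9 falls with YWCH-4A. Over all 52 members it was lowest for 23 (44.2%) and highest for 17 (32.7%), beside 35.0% and 29.8% of all tested genes. A call against vehicle already favours a vehicle library as the extreme one. The same count over all called genes was not made, so the counts among called members do not set the members apart. Without it, 15 members were higher and 14 lower with YEXX-2A, and 25 of the 28 original calls were kept (35.1% of all genes called). With YWCH-4A 10 were then higher and 13 lower, with all 15 calls kept (39.4% of all genes called). YEXX-2A replicates 1 and 2 also set the number of YEXX-2A calls: 6 members were higher and 5 lower without replicate 1, and 1 higher and 4 lower without replicate 2, with 12.6% and 9.03% of all genes called.

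**Figure D2:**
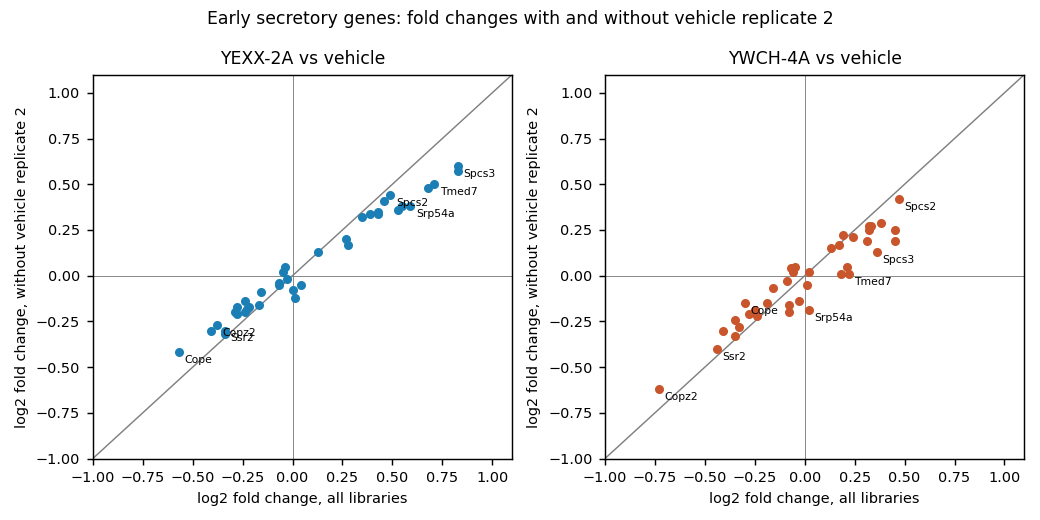
Each point is 1 of 38 named and tested members, with its log2 fold change against vehicle from all libraries on the horizontal axis and without vehicle replicate 2 on the vertical axis; the diagonal marks equal values. Larger rises such as Spcs3 (0.83 to 0.60 with YEXX-2A) lie below the diagonal, and Spcs2 (0.49 to 0.44) lies near it.

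Signal peptidase, which cuts the signal peptide from entering proteins, changed in 1 direction. Of its 5 subunit genes, 4 rose and 0 fell with YEXX-2A (median 0.46), and 3 rose and 0 fell with YWCH-4A (median 0.33). Of all tested genes, 17.6% were called higher with YEXX-2A and 15.7% with YWCH-4A. Spcs2, a noncatalytic subunit, read 84.5, 74.5 and 81.7 CPM with vehicle, 113, 109.6 and 116 with YEXX-2A, and 109, 114 and 111 with YWCH-4A. All 6 compound libraries lay above all vehicle libraries, and the compound groups overlapped each other. Its log2 fold change was 0.49 ± 0.07 (SE, adjusted p = 0.00143) with YEXX-2A and 0.47 ± 0.07 (adjusted p = 0.000327) with YWCH-4A, and both calls held whichever library was left out. Spcs1, another small subunit, read 42.3, 38.2 and 43.4 CPM with vehicle, 52.8, 57.9 and 51.6 with YEXX-2A, and 48.5, 54.4 and 52.7 with YWCH-4A. Again both compound groups lay wholly above vehicle, by 0.39 (adjusted p = 0.00934) and 0.33 (adjusted p = 0.012) on the log2 scale. Sec11c, one of the catalytic subunits, read 17.5, 16 and 18.95 CPM with vehicle, 25.0, 25.7 and 21.2 with YEXX-2A, and 21.4, 22.98 and 21.2 with YWCH-4A, and rose by 0.46 (adjusted p = 0.0123) and 0.32 (adjusted p = 0.0405). The other catalytic subunit, Sec11a, averaged 84.2 ± 4.15 CPM (SD, n = 3) with vehicle, 92.5 ± 3.94 with YEXX-2A and 94.9 ± 1.89 with YWCH-4A. Over all libraries it was called with neither. Without vehicle replicate 2, all 5 genes, Sec11a included, were higher with YEXX-2A, and 4 of the 5 were higher with YWCH-4A. In those fits 35.1% and 39.4% of all genes were called. Spcs3, a noncatalytic subunit, read 40.1, 24.1 and 47.6 CPM with vehicle, 63.9, 78.6 and 55.8 with YEXX-2A, and 48.3, 50.7 and 44.7 with YWCH-4A. It rose with YEXX-2A by 0.83 ± 0.20 (adjusted p = 0.0159), or 0.60 without vehicle replicate 2, whose value was 0.55 of the mean of the other vehicle libraries, and it was not called with YWCH-4A (0.36 ± 0.21, adjusted p = 0.211). Without YEXX-2A replicate 2 the YEXX-2A calls of Spcs1 (adjusted p = 0.052), Spcs3 (0.071) and Sec11c were lost, the last also without YEXX-2A replicate 1 (up to 0.0606), and the YWCH-4A calls of Spcs1 (0.0613, without YWCH-4A replicate 2) and Sec11c (up to 0.146, without vehicle replicate 1, YEXX-2A replicate 1 or 2, or any YWCH-4A replicate) were lost likewise. Summed over the 5 genes, CPM were 269.8, 240.2 and 271 with vehicle, 349.6, 359.8 and 339.7 with YEXX-2A, and 323, 337 and 323 with YWCH-4A.

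The signal recognition particle pauses translation and targets the ribosome. It had 4 rises and 1 fall of 5 members with YEXX-2A (median 0.43) and 1 rise with YWCH-4A (median 0.21). Of all tested genes, 36.1% and 30.6% were called. Srp14, which pauses elongation together with Srp9, read 25.7, 23.4 and 29.9 CPM with vehicle, 36.0, 35.9 and 34.4 with YEXX-2A, and 31.7, 34.3 and 32.9 with YWCH-4A. The 3 groups did not overlap, and the rise was 0.43 ± 0.10 (adjusted p = 0.0116) and 0.32 ± 0.10 (adjusted p = 0.027). Its partner Srp9 read 17.3, 16.5 and 17.8 CPM with vehicle and 20.6, 22.4 and 22.6 with YEXX-2A, a rise of 0.35 (adjusted p = 0.02), and 19.2, 21.9 and 19.8 with YWCH-4A, which was not called (0.24, adjusted p = 0.0736). Srp19, which shapes the particle's RNA for assembly, averaged 7.79 ± 1.78 CPM with vehicle and 11.3 ± 0.981 with YEXX-2A (0.53, adjusted p = 0.0314), and Srp54a, the GTPase that binds the signal peptide, 20.9 ± 5.90 and 31.4 ± 6.54 (0.59, adjusted p = 0.0463). With YWCH-4A they averaged 9.08 ± 0.766 and 21.1 ± 2.31 CPM and were not called. Srp68, a large protein of the targeting domain, went the other way with YEXX-2A, from 257, 282 and 262 CPM to 223, 214 and 243 (fell by 0.24, adjusted p = 0.0235), and read 244, 227 and 234 with YWCH-4A (-0.19, adjusted p = 0.0555). Among the YEXX-2A calls, Srp14 (adjusted p = 0.0504) and Srp9 (0.0817) were lost without YEXX-2A replicate 2, Srp68 (up to 0.105) without YEXX-2A replicate 1 or 2, Srp19 without any YEXX-2A replicate or YWCH-4A replicate 1 (up to 0.114) and Srp54a without any library but vehicle replicate 3 (up to 0.185). Without vehicle replicate 2 the change of Srp54a was 0.38 (adjusted p = 0.0894), and that of Srp68 with YWCH-4A was called (-0.15, adjusted p = 0.0351). The YWCH-4A call of Srp14 was lost without vehicle replicate 1 or any YWCH-4A replicate (up to 0.104). Srp14 carried counts that were not whole, as happens where reads are shared with another gene model. Srpra, the receptor subunit on the ER membrane, averaged 218 ± 4.76 CPM with vehicle, 231 ± 5.17 with YEXX-2A and 221 ± 3.33 with YWCH-4A and was called in no comparison.

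The Sec61 channel itself was called in no comparison over all libraries. Sec61a1, Sec61a2, Sec61b and Sec61g had log2 fold changes from -0.08 to 0.07 with YEXX-2A and from -0.05 to 0.13 with YWCH-4A. Sec61a1 read 816, 986 and 827 CPM with vehicle, 839.6, 821 and 891 with YEXX-2A, and 853, 829 and 861 with YWCH-4A. Its vehicle libraries spanned the values of both compound groups. The channel's helpers Sec62 and Sec63, which serve proteins that enter after translation, were called higher with YEXX-2A alone. Sec63, a J-domain protein that recruits the chaperone BiP, read 64.8, 44.4 and 71.1 CPM with vehicle, 87.7, 94.9 and 82.2 with YEXX-2A (0.55 ± 0.14, adjusted p = 0.0173), and 67.8, 71.3 and 66.1 with YWCH-4A (0.18, adjusted p = 0.35). The YEXX-2A libraries lay above both other groups, the rise was 0.38 without vehicle replicate 2, and the call was lost without YEXX-2A replicate 1 or 2 (adjusted p up to 0.0728). Sec62 read 17.1, 13.2 and 16.6 CPM with vehicle and 21.97, 24.9 and 16.3 with YEXX-2A, groups that overlapped, and its rise of 0.43 (adjusted p = 0.0487) was lost without any library but YEXX-2A replicate 3 (up to 0.198; 0.34 with 0.0698 without vehicle replicate 2).

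The 4 subunits of the translocon-associated protein complex (TRAP), which helps some signal peptides open the channel, moved in different directions against vehicle. Ssr2 read 267, 285 and 257 CPM with vehicle, 214, 213 and 213 with YEXX-2A, and 203, 197 and 198 with YWCH-4A. The groups did not overlap, and it fell by 0.34 (SE 0.06, adjusted p = 0.00387) and by 0.44 (SE 0.06, adjusted p = 0.000199), calls that held under every omission of a library and every other alternative run. Ssr3 read 89.1, 55.8 and 97.2 CPM with vehicle and 126, 138 and 124 with YEXX-2A, a rise of 0.68 ± 0.16 (adjusted p = 0.0129) that was 0.48 without vehicle replicate 2 and was lost without YEXX-2A replicate 2 (adjusted p = 0.0558). With YWCH-4A it read 112, 109.9 and 109, all above vehicle, and was not called (0.45 ± 0.16, adjusted p = 0.0525), though it was without vehicle replicate 2 (0.25, adjusted p = 0.00242). Ssr4 averaged 99.4 ± 10.7 CPM with vehicle, 95.8 ± 4.03 with YEXX-2A and 81.7 ± 1.82 with YWCH-4A, and fell with YWCH-4A by 0.28 (adjusted p = 0.0229), a call lost without vehicle replicate 1 or any YWCH-4A replicate (up to 0.0915). Ssr1 averaged 317 ± 27.5, 346.6 ± 3.06 and 316 ± 4.76 CPM and was called in no comparison over all libraries. Without vehicle replicate 2, all 4 subunits were called lower with YWCH-4A than with YEXX-2A, where 51.6% of all genes were called.

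**Figure D3:**
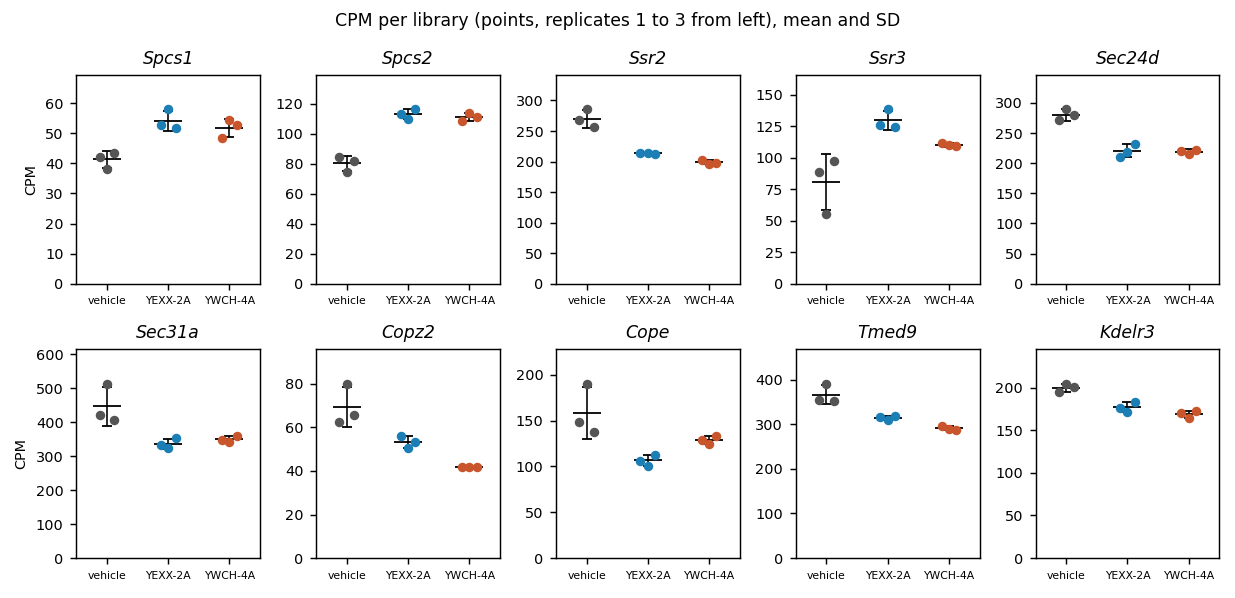
CPM of 10 members in each library (points, replicates 1 to 3 from the left), with the group mean and SD as bars, on axes that start at 0. Spcs1 and Spcs2 are higher with both compounds, Ssr2, Sec24d, Sec31a, Copz2, Tmed9 and Kdelr3 are lower with both, and Ssr3 and Cope are called with YEXX-2A.

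The COPII coat, which buds vesicles at ER exit sites, had 4 falls and 0 rises of 10 tested genes with YEXX-2A, and 2 falls and 1 rise with YWCH-4A. Of all tested genes, 36.1% and 30.6% were called, so the coat's calls in either direction lay near these shares. Sec24d, an inner coat subunit that selects cargo and is needed for procollagen export, read 271, 289 and 279.8 CPM with vehicle, 211, 219 and 232 with YEXX-2A, and 220.0, 215 and 222 with YWCH-4A. Every compound library lay below every vehicle library, while the compound groups overlapped. It fell by 0.34 (SE 0.06, adjusted p = 0.00387) and by 0.35 (SE 0.06, adjusted p = 0.00105), and both calls held whichever library was left out. Sec31a, the rod of the outer cage, read 420.2, 513 and 406 CPM with vehicle, 332, 323 and 353 with YEXX-2A, and 348, 341 and 360.2 with YWCH-4A. It too was below vehicle in all 6 compound libraries, by 0.41 (adjusted p = 0.00917) and 0.35 (adjusted p = 0.0104) on the log2 scale, or 0.30 and 0.24 without vehicle replicate 2, and the YWCH-4A call was lost without YWCH-4A replicate 2 (adjusted p = 0.0513). Sec13, its cage partner, fell by 0.19 with YEXX-2A (adjusted p = 0.0413) from 104 ± 0.972 to 91.2 ± 4.53 CPM, and is named after its value was seen to complete the count. Sec24c, another inner coat subunit, read 192, 224 and 193 CPM with vehicle and 166, 157 and 177 with YEXX-2A (fell by 0.28, adjusted p = 0.0202, lost without YEXX-2A replicate 1 or 2, up to 0.0927), and 199, 189 and 196 with YWCH-4A, which was not called. Sar1b, the GTPase that starts coat assembly, averaged 33.3 ± 4.87 CPM with vehicle, 40.4 ± 1.27 with YEXX-2A and 41.2 ± 1.502 with YWCH-4A. It rose with YWCH-4A (0.31, adjusted p = 0.0443, lost without any library but vehicle replicates 2 and 3, up to 0.138; 0.19 without vehicle replicate 2) and was not called with YEXX-2A (0.28, adjusted p = 0.0549). Sec23a, Sec23b, Sec23ip, Sec24a and Sec24b, which form or bind the inner coat, were called with neither. Sec23a was lower with YWCH-4A without vehicle replicate 2 (-0.20, adjusted p = 0.014), and Sec31b stayed at 0.0625 to 0.396 CPM and was not tested. Sar1b and Sec24a face away from each other on chromosome 10, with starts 62 bases apart on build GRCr8.

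Among the Sec22 genes, named for a vesicle fusion protein, Sec22a read 16.3, 14.2 and 18.5 CPM with vehicle, 16.9, 17.2 and 14.9 with YEXX-2A, and 20.6, 22.4 and 20.9 with YWCH-4A. The YWCH-4A libraries lay above the other 6, with a rise over vehicle of 0.38 ± 0.11 (adjusted p = 0.0257, lost without vehicle replicate 1 or any YWCH-4A replicate, up to 0.0996). Sec22b averaged 91.4 ± 8.21, 85.7 ± 1.16 and 85.0 ± 5.07 CPM, Sec22c stayed between 1.09 and 2.81 CPM, and neither was called.

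**Figure D4:**
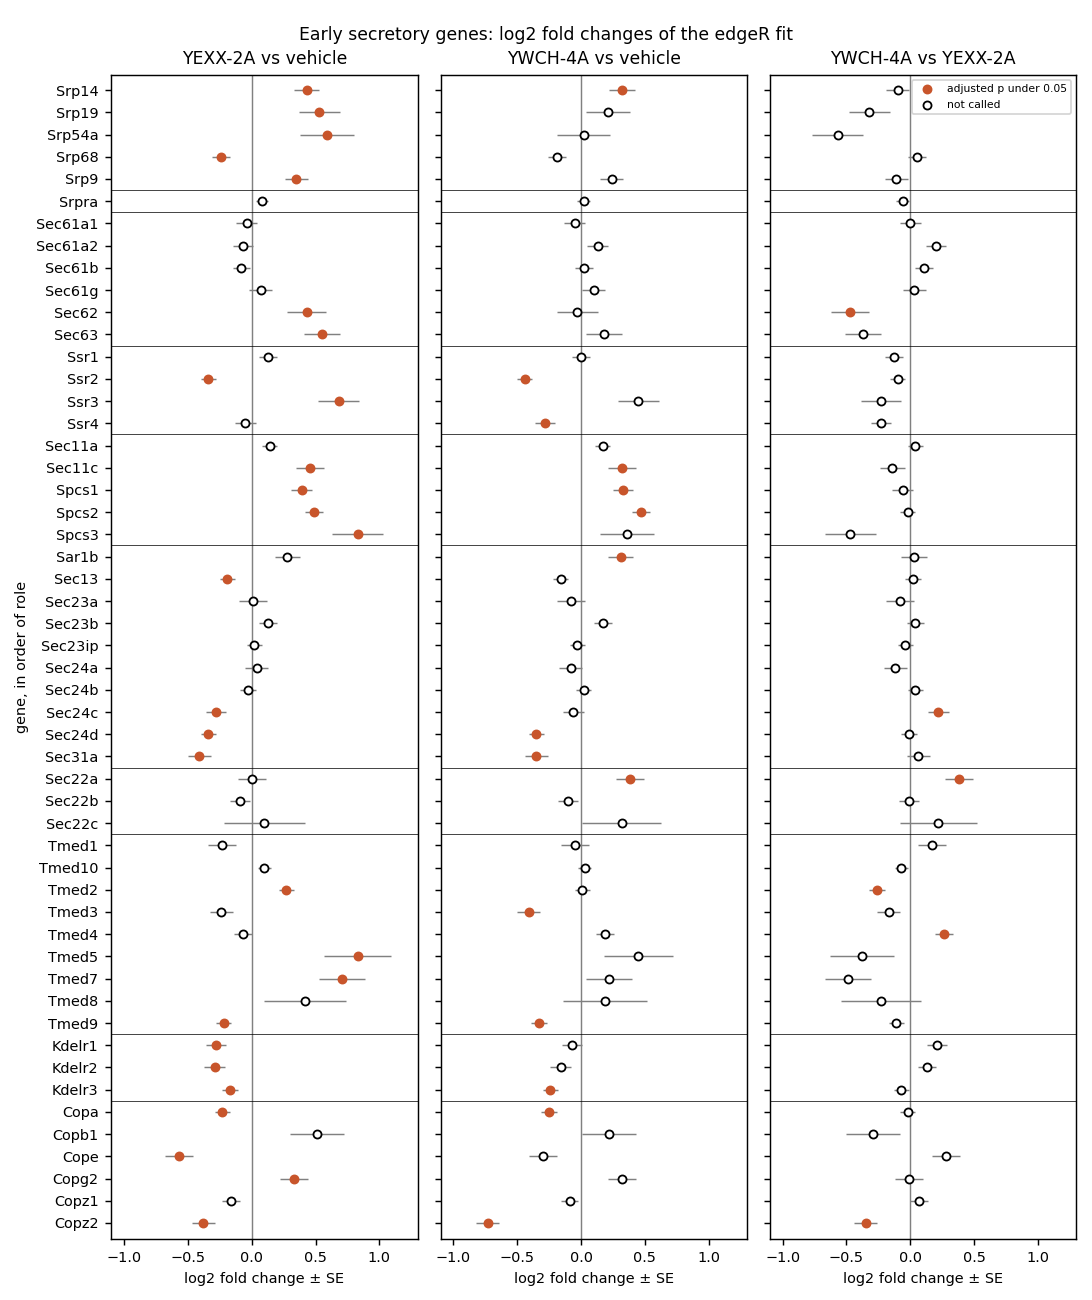
Log2 fold change with its standard error for the 52 tested members, ordered by role, in the 3 comparisons; filled points passed an adjusted p under 0.05. Signal recognition particle and signal peptidase genes lie mostly to the right with YEXX-2A, KDEL receptors to the left, and 6 members are filled between the compounds.

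Most Tmed genes encode p24 proteins, which travel in COPII and COPI vesicles and help load cargo. Tmed9 read 356, 391 and 353 CPM with vehicle, 315, 309 and 319 with YEXX-2A, and 296, 289 and 288 with YWCH-4A. The groups did not overlap, and it fell by 0.22 (adjusted p = 0.0189) and by 0.33 (adjusted p = 0.0015), the first call lost without YEXX-2A replicate 1 or 2 (up to 0.0823) and the second kept in every omission. Tmed3 read 147, 178 and 144 CPM with vehicle, 129, 127 and 141 with YEXX-2A, and 116, 119 and 118 with YWCH-4A. It fell with YWCH-4A by 0.41 (adjusted p = 0.00462, kept in every omission), and with YEXX-2A its change of -0.24 sat at the threshold and was not called, while without vehicle replicate 2 it was -0.14 and called (adjusted p = 0.0498). Tmed2, which pairs with Tmed10, read 370.3, 325 and 378 CPM with vehicle, 433, 430.0 and 429 with YEXX-2A, and 356, 366 and 358 with YWCH-4A. The YEXX-2A libraries lay above all others, with a rise of 0.27 (adjusted p = 0.0147, lost without YEXX-2A replicate 1 or 2, up to 0.0604). Tmed7 rose with YEXX-2A from 65.7, 41.7 and 79.1 to 98.1, 114 and 94.1 CPM (0.71 ± 0.18, adjusted p = 0.0172), or by 0.50 without vehicle replicate 2, and was lost without YEXX-2A replicate 1 or 2 (up to 0.0728). With YWCH-4A it read 75.3, 75.3 and 67.0 CPM and was not called. Tmed5, at 1.94 ± 0.744 CPM with vehicle and 3.45 ± 0.628 with YEXX-2A, rose by 0.83 (adjusted p = 0.0349), a call lost without any library but vehicle replicate 3 and YEXX-2A replicate 3 (up to 0.13; 0.57 with 0.0631 without vehicle replicate 2). Tmed1, Tmed4, Tmed8 and Tmed10 were called with neither compound against vehicle, except that Tmed4 was higher with YWCH-4A without vehicle replicate 2 (0.22, adjusted p = 0.00812).

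All 3 KDEL receptors fell with YEXX-2A (median -0.28), and Kdelr3 fell with YWCH-4A. Of all tested genes, 18.5% were called lower with YEXX-2A and 14.9% with YWCH-4A. Kdelr3 read 194, 205 and 200.2 CPM with vehicle, 177, 171 and 183 with YEXX-2A, and 170.1, 164 and 172 with YWCH-4A. Both compound groups lay below vehicle, by 0.17 (adjusted p = 0.0363, lost without YEXX-2A replicate 1 or 2 or any YWCH-4A replicate, up to 0.138) and by 0.24 (adjusted p = 0.0075, kept in every omission). Kdelr1 read 274, 335 and 264 CPM with vehicle, 238, 231 and 249.8 with YEXX-2A, and 281, 272 and 278 with YWCH-4A. It fell with YEXX-2A by 0.28 (adjusted p = 0.0299), or by 0.17 without vehicle replicate 2, lost without YEXX-2A replicate 1 or 2 or YWCH-4A replicate 1 or 3 (up to 0.113), while its YWCH-4A values lay inside the vehicle range. Kdelr2 averaged 200.4 ± 20.3 CPM with vehicle, 164 ± 1.98 with YEXX-2A (fell by 0.29, adjusted p = 0.0183, lost without YEXX-2A replicate 1 or 2, up to 0.0745) and 179 ± 7.78 with YWCH-4A, which was not called.

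The COPI coat, which carries material back to the ER, had 3 falls and 1 rise of 6 members with YEXX-2A and 2 falls with YWCH-4A. Of all tested genes, 36.1% were called with YEXX-2A and 30.6% with YWCH-4A. Copz2, one of the alternative zeta subunits, read 62.7, 80.1 and 65.7 CPM with vehicle, 55.9, 50.3 and 53.3 with YEXX-2A, and 41.7, 41.7 and 41.8 with YWCH-4A. The 3 groups were separate, in the order vehicle, YEXX-2A, YWCH-4A. It fell by 0.38 ± 0.09 with YEXX-2A (adjusted p = 0.015, lost without YEXX-2A replicate 2, 0.0713) and by 0.73 ± 0.09 with YWCH-4A (adjusted p = 0.00018, kept in every omission), or by 0.27 and 0.62 without vehicle replicate 2. Copz1, the other zeta gene, averaged 139 ± 11.3, 125 ± 6.02 and 131 ± 2.901 CPM and was called in no comparison. Cope, the epsilon subunit, read 148, 190.2 and 137 CPM with vehicle, 106, 101 and 112 with YEXX-2A, and 128, 125 and 133 with YWCH-4A. Every YEXX-2A library was below every other library, with a fall of 0.57 ± 0.11 (adjusted p = 0.00618, kept in every omission), and the change with YWCH-4A was -0.30 ± 0.11 (adjusted p = 0.0592), or -0.15 and called without vehicle replicate 2 (adjusted p = 0.045). Copa, the alpha subunit, which binds retrieval signals, read 496, 565 and 519 CPM with vehicle, 447, 434 and 466 with YEXX-2A, and 451, 431 and 451 with YWCH-4A. It fell by 0.23 (adjusted p = 0.0226, lost without YEXX-2A replicate 1 or 2, up to 0.0981) and by 0.25 (adjusted p = 0.014, lost without YWCH-4A replicate 2, 0.0734). Copg2, a gamma subunit named after its value was seen to complete the count, rose with YEXX-2A (0.33, adjusted p = 0.0421). Copb1, the beta subunit, read 100.4, 56.1 and 121 CPM with vehicle and 125, 146 and 124 with YEXX-2A and was not called (0.51 ± 0.21, adjusted p = 0.0726).

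Compared directly, 3 members were higher and 3 lower with YWCH-4A than with YEXX-2A of 52 (11.5%), where 31.3% of all genes were called (16.2% higher and 15.1% lower). A fit of only the 2 compound groups kept these 6 calls and called 8 members higher and 15 lower. It called 5903 of 11456 tested genes, so the number of calls depended on whether the vehicle libraries were in the fit. Doses are not in the labels, so the compounds are set side by side without a matched dose. Copz2 was lower with YWCH-4A (-0.35 ± 0.09, adjusted p = 0.0168), as were Tmed2 (-0.26 ± 0.06, adjusted p = 0.0122) and Sec62 (-0.47 ± 0.15, adjusted p = 0.039). Tmed4 was higher with YWCH-4A, at 76.8, 72.3 and 70.7 CPM beside 63.2, 59.2 and 61.1 with YEXX-2A (0.26 ± 0.07, adjusted p = 0.0146). Sec22a (0.38 ± 0.11, adjusted p = 0.0257) and Sec24c (0.22 ± 0.08, adjusted p = 0.0447) were higher too. The compound groups did not overlap for any of the 6. They did not overlap either for members that were not called, such as Srpra, Tmed10, Ssr1 and Kdelr2, so this does not set the 6 apart. Each of the 6 calls was lost in some omission. Copz2 (adjusted p up to 0.0705) was lost without YEXX-2A replicate 1 or any YWCH-4A replicate, Tmed2 (0.056) without YWCH-4A replicate 1 or 3, and Tmed4 (0.079) without YEXX-2A replicate 2 or YWCH-4A replicate 1. Sec62 (0.171) was lost without YEXX-2A replicate 1 or 2 or any YWCH-4A replicate, Sec24c (0.186) without those or vehicle replicate 1, and Sec22a (0.0889) without any of the 6 compound libraries. With all libraries, Sec24c was also lost with DESeq2 size factors, upper-quartile factors, DESeq2 and a replicate block, so its call depended on the scaling too. Sec22a and Sec62 were lost with a replicate block, and Sec62 and Tmed2 with limma-trend on log2(FPKM + 1). Without vehicle replicate 2, 8 members were higher and 15 lower, where 51.6% of all genes were called. Spcs2 differed by -0.02 ± 0.06 (adjusted p = 0.811) and Sec24d by -0.01 ± 0.06 (adjusted p = 0.932) between the compounds.

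Where a family has paralogues, their shares of the family's FPKM show how the mix of subunits stood. Sec24d made up 51.1% ± 0.47 (SD, n = 3) of Sec24 FPKM with vehicle, 48.1% ± 1.03 with YEXX-2A and 45.9% ± 0.57 with YWCH-4A. The 3 groups did not overlap. Sec24b made up 12.4% ± 0.47, 14.5% ± 0.87 and 14.3% ± 0.31, Sec24c 29.5% ± 1.60, 28.9% ± 1.02 and 32.3% ± 0.12, and Sec24a 6.93% ± 0.97, 8.44% ± 0.48 and 7.48% ± 0.14. Copz2 made up 56.0% ± 1.71 of zeta subunit FPKM with vehicle, 52.2% ± 0.74 with YEXX-2A and 45.0% ± 0.59 with YWCH-4A. On this length-corrected scale it was the larger zeta gene in the first 2 groups and the smaller in the third. In CPM, which do not correct for length, Copz2 averaged 69.5, 53.2 and 41.7, below Copz1 (139, 125 and 131) in each group. Sec61a1 made up 90.9% ± 0.61, 91.1% ± 0.36 and 89.9% ± 0.41 of Sec61 alpha FPKM, and Sec23a 58.5% ± 3.91, 56.6% ± 2.34 and 54.5% ± 2.66 of Sec23. Groups of 3 against 3 allow an exact two-sided permutation p of 0.1 at the least, which separate groups reached (0.171 after Benjamini-Hochberg adjustment over 24 tests), so this design cannot bring a share under 0.05 and the shares are a description.

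**Figure D5:**
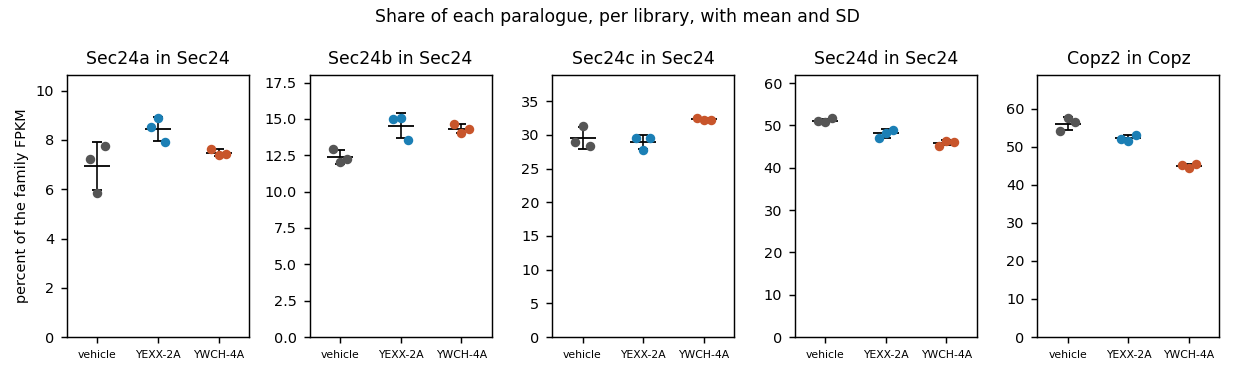
Share of each paralogue in the summed FPKM of its family, in percent, per library (points) with the group mean and SD as bars. Sec24d and Copz2 shares step down from vehicle through YEXX-2A to YWCH-4A without overlap.

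Other genes of the route came from lists chosen with earlier results known, and their counts stand beside 36.1% of all tested genes called with YEXX-2A and 30.6% with YWCH-4A. Of 11 genes that assemble COPI, 5 fell and 1 rose with YEXX-2A and 2 fell with YWCH-4A (54.5% and 18.2% called, medians -0.17 and -0.11). Without vehicle replicate 2, 6 fell and 0 rose with each compound. Gbf1, which activates the Arf GTPases that recruit COPI, fell by 0.36 (adjusted p = 0.00952) and by 0.23 (adjusted p = 0.0452), and Arfgap1, which turns Arf1 off, fell by 0.26 (adjusted p = 0.0296) and by 0.39 (adjusted p = 0.00305). Of 17 genes of COPII assembly and cargo reception, 5 rose and 4 fell with YEXX-2A, and 2 rose and 3 fell with YWCH-4A (52.9% and 29.4% called). The cargo receptor gene Cnih4 rose with both (0.35, adjusted p = 0.0281; 0.51, adjusted p = 0.00382), and Ergic3 fell with both (-0.31, adjusted p = 0.0323; -0.35, adjusted p = 0.019). Of 41 tethers and fusion proteins between ER and Golgi, 10 fell and 2 rose with YEXX-2A, and 3 fell and 3 rose with YWCH-4A (29.3% and 14.6% called, both below the share of all genes); without vehicle replicate 2, 6 rose and 3 fell with YWCH-4A. Ykt6, a fusion protein, and Nbas, part of the tether for returning vesicles, each fell by 0.61 with YWCH-4A (adjusted p = 6.98e-05 and 5.2e-05), and by 0.20 and 0.29 with YEXX-2A (adjusted p = 0.0474 and 0.0117). Of 12 oligosaccharyltransferase genes, which attach glycans at the channel, 3 rose and 0 fell with YEXX-2A, and 2 rose and 3 fell with YWCH-4A (25.0% and 41.7% called), and 3 rose and 5 fell with YWCH-4A without vehicle replicate 2. Ostc rose with both (0.29 and 0.20, adjusted p = 0.0103 and 0.0312). Of 7 genes that insert tail-anchored proteins, 5 fell and 0 rose with YEXX-2A (71.4% called, median -0.34), and 2 fell and 1 rose with YWCH-4A (42.9%, median -0.15). Ubl4a, of the complex that hands such proteins on, fell by 0.36 with each (adjusted p = 0.0113 and 0.00659). Of 16 genes of the ER membrane protein complex and translocon partners, 4 rose and 1 fell with YEXX-2A, and 1 rose and 1 fell with YWCH-4A (31.2% and 12.5% called), or 3 and 2 with YWCH-4A without vehicle replicate 2.

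Among 8 tested transcription factors that control secretory genes, 1 rose and 4 fell with YEXX-2A and 3 fell with YWCH-4A (62.5% and 37.5% called), and 2 rose and 3 fell with YWCH-4A without vehicle replicate 2. Creb3l1, which drives secretory and collagen genes in matrix-producing cells, averaged 365 CPM with vehicle, 267 with YEXX-2A and 225 with YWCH-4A, a fall of 0.45 (adjusted p = 0.00439) and of 0.70 (adjusted p = 6.98e-05). Atf4 fell with YWCH-4A by 1.15 (adjusted p = 8.03e-07) and was not called with YEXX-2A (-0.17, adjusted p = 0.0843). Xbp1, the factor of the unfolded protein response whose element core is printed above, fell with YEXX-2A by 0.20 (adjusted p = 0.0409) and was not called with YWCH-4A (0.10, adjusted p = 0.289). Of 16 ER chaperones and folding enzymes, 4 rose and 2 fell with each compound (37.5% called, medians 0.09 and 0.15), and without vehicle replicate 2, 7 rose and 2 fell with YWCH-4A. P4hb, which is protein disulfide isomerase, rose with YWCH-4A (0.39, adjusted p = 0.00223). Among the cargo of the route, Col1a1 averaged 32190 CPM with vehicle, 21960 with YEXX-2A and 6464 with YWCH-4A (log2 fold changes -0.55 and -2.32, adjusted p = 0.00761 and 1.42e-07), and the collagen chaperone Serpinh1, 1 of the 2 falls in the chaperone list, averaged 2558, 1979 and 1367. Serpinh1 fell by 0.37 (adjusted p = 0.00702) and by 0.90 (adjusted p = 5.37e-06), more than any member fell with YWCH-4A. These values stand beside those of the members, and their part in the members' changes was not tested.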

How the data were processed

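RNA enriched with oligo(dT) beads was sequenced from 9 libraries. The authors deposited each estimated count without normalization, as the file headers and values show, and 8.87% of those above 0 were not whole. FPKM values, scaled by gene length and depth by the authors, were deposited beside them. The submitters' processing notes list StringTie (version 1.3.1), RSEM, DESeq2 and edgeR without saying what each did. The aligner, genome build and annotation are not given in the sources used here. Reads of antisense genes are treated as not separable, and counts of Sec61a2, Srp14 and Tmed1 that were not whole mark reads shared between gene models.

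Counts were rounded, and filterByExpr (minimum count 10) of edgeR 4.0.16 in R 4.3.3 left 11473 genes. The robust quasi-likelihood test with TMM factors was fitted on all 9 libraries with group as the factor, so the groups shared an estimate of spread although vehicle varied most. P-values were two-sided and Benjamini-Hochberg adjusted over all tested genes, and a gene was called under 0.05. CPM are on TMM-scaled library sizes. Whether groups overlapped is given as a description, and the share of all genes without overlap was not counted. Alternatives were DESeq2 1.42.0 and its size factors, upper-quartile factors, other filters, limma-voom and limma-trend on log2(FPKM + 1) of limma 3.58.1, the 2 groups alone, a replicate block, and each library left out.

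The members and lists were chosen with earlier results of these data known. Members named were, per role and comparison, the 3 called with the smallest p, calls with an absolute log2 fold change of at least 0.5, paralogue families and members near the count threshold, and per context list the 2 called with the smallest p. Of 133 context entries in 8 lists 131 matched, 1 by synonym, and of 42 marker entries 40 matched. Sequences are from RefSeq, matched by symbol.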

Additional observations from a re-analysis of the deposited data

How the results depend on the processing

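Of 2052 values of named members under the alternatives, 1804 kept their side of the threshold, 170 lost a call, 78 gained one and 0 calls changed sign. Calls held under every omission of a library for 5 of 26 named YEXX-2A calls (Cope, Sec24d, Sec31a, Ssr2 and Spcs2), 7 of 15 YWCH-4A calls (6 of them under every alternative, with Kdelr3 lost in limma-trend on FPKM) and 0 of 6 calls between the compounds. With YEXX-2A, fitting only the 2 groups compared called 1408 genes, with 6 members higher and 4 lower. Leaving out a library gave 1044 to 5308 genes, 1 to 16 members higher and 4 to 15 lower, lowest without YEXX-2A replicate 2 and highest without vehicle replicate 3. With YWCH-4A, the fit of 2 groups called 2749 genes, with 2 members higher and 8 lower. Omissions gave 2450 to 4588 genes, 1 to 10 members higher and 6 to 13 lower, lowest without YWCH-4A replicate 2 and highest without vehicle replicate 2. On log2(FPKM + 1), 18 members were higher and 5 lower with YWCH-4A (4700 genes called), and 9 higher and 1 lower between the compounds (4112 genes called). The same fit, which changes both the scale and the test, put the median of all genes at 0.07, 0.18 and 0.08 in the 3 comparisons, and 62%, 78.1% and 72.6% of its calls were higher, beside 48.8%, 51.2% and 51.7%; the part of each change was not tested. Between the compounds, members lower numbered 5 with DESeq2 size factors, 7 with DESeq2 and 6 with limma-voom. Members higher numbered 2, 2 and 3, and 3514, 3762 and 3852 genes were called. The fit of those 2 groups called 5903 genes, with 8 members higher and 15 lower, and omissions gave 2225 to 6001 genes, 0 to 8 members higher and 0 to 15 lower. Same-numbered libraries did not pair: their deviations correlated at -0.27 to 0.08 (9 pairs), those of different numbers at -0.20 to 0.23 (18 pairs), and 0 of 9 libraries correlated best with their own number. With a replicate block, 1931 genes, 9 members higher and 5 lower were called with YEXX-2A. That block called 2787 genes, 2 members higher and 8 lower with YWCH-4A. Between the compounds it called 2612 genes, 1 member higher and 2 lower. Fits of fewer libraries have fewer degrees of freedom, but not all of them called fewer genes. Between the compounds, 3593 genes were called over all libraries, 5903 in the fit of those 2 groups and 6001 without vehicle replicate 2. The causes of these shifts were not tested. Depth limits Sec31b, Tmed5, Tmed8 and Sec22c, whose counts are few.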
